A study of Mus musculus with 9 samples.

Results

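The genes described here are 7 genes of cholesterol synthesis and efflux in cDC precursors: Hmgcs1, Sqle, Idi1, Lss, Srebf2, Abca1 and Abcg1. They were taken by symbol from the 51912 genes of the deposited count table, and all 7 were found. Bulk RNA-seq had been run on FACS-purified pre-cDCs, the precursors committed to the conventional DC lineage, from BM and spleen. There were 3 WT samples from BM, 3 DNGR-1 KO samples from BM, 1 WT sample from spleen and 2 DNGR-1 KO samples from spleen. Comparing the genotypes asks which transcripts depend on DNGR-1, the dead-cell receptor encoded by Clec9a, and comparing the tissues asks how pre-cDCs differ between the site where they form and a site they seed.

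All cells came from mixed BM chimeras, in which irradiated BL/6 hosts carrying both CD45 alleles had received WT BL/6 marrow (CD45.1) and DNGR-1 KO marrow (CD45.2) in equal parts. The KO cells are Clec9aCre/Cre, so both Clec9a alleles carry a Cre insertion, and the donors also differ at the CD45 locus. The labels give no treatment for any sample. One label field of each WT sample names CD45.2 instead of CD45.1, and the study's text gives CD45.1. Each sample held cells pooled from 2 mice, and the study counts 6 mice in all, so samples of different groups must share mice, although which ones do is not given. The age of the mice is not given in the labels. The labels do not say whether replicates came from separate sorts, so p-values measure the spread between these samples, which may be partly technical.

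Cells make cholesterol from acetyl-CoA through the mevalonate pathway. Its genes are switched on by SREBP-2, the product of Srebf2, a membrane-bound transcription factor that is released from the endoplasmic reticulum when membrane sterol falls. When oxysterols build up, the nuclear receptors LXRα and LXRβ instead switch on the exporters ABCA1 and ABCG1, which pass cholesterol to lipoproteins. In proliferating cells and in phagocytes the balance of the 2 arms is known to move with membrane demand and with lipid taken up from other cells.

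Within this pathway, Hmgcs1 encodes the cytosolic HMG-CoA synthase and Idi1 the isopentenyl diphosphate isomerase, both of the mevalonate part. Sqle encodes squalene epoxidase and Lss lanosterol synthase, which act in turn on squalene and form the first sterol. On GRCm38, in the GENCODE M21 annotation, Hmgcs1 (ENSMUSG00000093930) lies at chr13:119690379-119708260 on the plus strand and Idi1 (ENSMUSG00000058258) at chr13:8885501-8892451, plus strand. Sqle (ENSMUSG00000022351) lies at chr15:59315077-59331192, plus strand, and Srebf2 (ENSMUSG00000022463) at chr15:82147181-82205379, plus strand. Lss (ENSMUSG00000033105) is at chr10:76531588-76557138, plus strand. Abca1 (ENSMUSG00000015243) occupies chr4:53030787-53159895 on the minus strand, and Abcg1 (ENSMUSG00000024030) chr17:31057675-31117988 on the plus strand. Exons of Hmgcs1, Idi1 and Lss overlap antisense genes (Gm48342, Gm48574 and 4930483K19Rik), and whether the authors counted by strand is not given in the sources used here. Counts are gene totals and cannot separate isoforms.

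Because the 2 arms are known for different promoter elements, the RefSeq promoters (GRCm38.p6, 250 bases before to 50 after the start) were searched on both strands for 4 motifs. They were the sterol regulatory element core TCACNCCAC, the NF-Y box CCAAT, the Sp1 box GGGCGG and an LXR-type direct repeat, that is, a pair of GGTNA half-sites with 5 bases between them. The table held promoters of 5 of the 7 genes, namely Hmgcs1, Idi1, Lss, Srebf2 and Abca1, and not of Sqle or Abcg1. The promoters of 3 synthesis genes and of Abca1 are shown 5′ to 3′ on the strand of the gene. Capitals mark the sterol regulatory element core and each NF-Y box (ATTGG where it lies on the other strand) in the synthesis genes, and the LXR-type repeat in Abca1. The windows are chr13:119690101-119690400 for Hmgcs1, chr13:8885356-8885655 for Idi1 and chr10:76531355-76531654 for Lss, all on the plus strand, and chr4:53159846-53160145 on the minus strand for Abca1.
Hmgcs1: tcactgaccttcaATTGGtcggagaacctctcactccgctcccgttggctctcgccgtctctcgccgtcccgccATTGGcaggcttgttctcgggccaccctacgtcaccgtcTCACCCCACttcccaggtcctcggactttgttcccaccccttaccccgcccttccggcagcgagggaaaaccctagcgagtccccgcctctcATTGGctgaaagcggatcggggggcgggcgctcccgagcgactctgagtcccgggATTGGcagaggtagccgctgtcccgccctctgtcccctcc
Idi1: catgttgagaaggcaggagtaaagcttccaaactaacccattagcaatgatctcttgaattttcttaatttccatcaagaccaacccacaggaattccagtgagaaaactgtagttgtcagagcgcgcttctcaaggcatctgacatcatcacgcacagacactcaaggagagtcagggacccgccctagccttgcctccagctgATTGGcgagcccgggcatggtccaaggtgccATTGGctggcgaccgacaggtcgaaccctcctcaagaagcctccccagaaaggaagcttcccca
Lss: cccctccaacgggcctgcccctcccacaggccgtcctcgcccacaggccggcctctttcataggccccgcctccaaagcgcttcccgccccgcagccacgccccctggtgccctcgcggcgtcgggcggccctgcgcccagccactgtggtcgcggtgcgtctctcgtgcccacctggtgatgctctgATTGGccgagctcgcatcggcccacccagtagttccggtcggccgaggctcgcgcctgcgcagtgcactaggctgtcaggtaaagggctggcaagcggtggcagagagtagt
Abca1: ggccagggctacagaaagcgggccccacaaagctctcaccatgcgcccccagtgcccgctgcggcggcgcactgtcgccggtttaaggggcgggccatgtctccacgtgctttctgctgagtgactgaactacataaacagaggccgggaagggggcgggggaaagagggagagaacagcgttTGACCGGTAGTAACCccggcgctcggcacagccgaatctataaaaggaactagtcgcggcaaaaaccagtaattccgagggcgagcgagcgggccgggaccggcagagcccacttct

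The sterol regulatory element core was found once among the 5 promoters, as TCACCCCAC beginning 137 bases before the start of Hmgcs1, and 1.24% of all 32851 promoters in the table hold it. An NF-Y box was present in the promoters of Hmgcs1 (4 matches), Idi1 (2), Lss (1) and Srebf2 (1) but not of Abca1, and 37.4% of all promoters hold one. Of the 17 genes of the mevalonate and cholesterol synthesis list with a promoter in the table, 16 had an NF-Y box (41.1% of all genes in the table), 15 had an Sp1 box (38.2% of all genes, 35.7% of all promoters) and 1, Hmgcs1, had the sterol regulatory element core (1.44% of all genes). The LXR-type repeat was found only in Abca1 among these promoters, on the strand opposite to the gene, 67 bases before the start, and 0.718% of all promoters hold it. No matches of different motifs overlapped in these promoters. These are letter matches and not measured binding.

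Total counts per sample were 17103806 to 23722298, so that 3 counts correspond to 0.127 to 0.179 CPM (counts scaled to library size, with TMM factors throughout). Clec9a had 905 to 2459 counts in the 4 WT libraries and 0 or 1 in the 5 DNGR-1 KO libraries. WT BM sample 1 and the WT spleen sample stood apart. WT BM sample 1 was the lowest of the 6 BM samples for 28.05% of 13016 genes tested. Some 8389 genes reached 100 counts in each DNGR-1 KO library of spleen, and 509 of them had 3 or fewer in WT spleen. The DNGR-1 KO spleen samples judged the same way had 149 of 7757 and 140 of 7691. For each BM sample the number was 0 or 1, but there the genes had to reach 100 counts in all other BM libraries, a stricter rule.

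The labelled cell type was checked against its markers. All 10 pre-cDC and cDC markers, among them Flt3, Itgax and Zbtb46, were above 3 counts in all 9 samples, with a summed level of 3153 to 5742 CPM in BM and 2288 to 4491 CPM in spleen. The levels were not equal, as 8 of the 10 had lower fitted values in spleen and 2 higher. Irf8 was the only one called, lower in spleen by edgeR (log2 -1.35, SE 0.33, adjusted p = 0.0202), beside 12.3% of all genes tested. It was at 2059 to 3421 CPM in BM and 934, 1677 and 623.5 CPM in WT, DNGR-1 KO 1 and DNGR-1 KO 2 spleen. Markers of other cells moved with the tissue. The 7 T cell markers summed to 1.02 to 9.46 CPM in BM and to 762 to 3252 CPM in spleen, and the 6 NK cell markers to 46.0 to 130 CPM and 518 to 877 CPM. Of the NK list, Klrk1 alone was at 46.0 to 130 CPM in BM. In WT, DNGR-1 KO 1 and DNGR-1 KO 2 spleen it was at 513, 386 and 487 CPM. The 10 macrophage and monocyte markers summed to 192 to 764 CPM in BM and 490 to 914 CPM in spleen. Csf1r alone was at 160 to 707 CPM in BM and at 680, 237 and 319 CPM in WT, DNGR-1 KO 1 and DNGR-1 KO 2 spleen. Adgre1 of the same list was at 1.755 to 10.1 CPM in BM and, in the same order, 124, 67.2 and 69.5 CPM in spleen. The 5 erythroid markers summed to 89.2 to 554 CPM in BM and 5660 to 33574 CPM in spleen. Of the erythroid list the 3 haemoglobin genes were called higher in spleen, and Klf1, at 233 to 5625 counts in BM and 0 to 5 in spleen, was called lower. The 7 neutrophil markers summed to 859 to 2762 CPM in BM, where Mpo alone was at 695 to 2101 CPM, and to 0 to 1.06 CPM in spleen. The 8 cycling genes summed to 3141 to 3773 CPM in BM and 277 to 324 CPM in spleen. The 6 B cell markers were at 37.3 to 58.5 CPM in BM and 34.7 to 47.0 CPM in spleen, of which Cd79b was 25.3 to 37.2 CPM in spleen. Ms4a1 had at most 1 count in BM, 0 in WT spleen and 213 and 222 counts in DNGR-1 KO spleen, and Pax5 was at 0 in all 3 spleen samples. In bulk samples, fewer cells of a type and less RNA per cell cannot be told apart. The part of these other cells in the tissue differences below was not tested.

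Levels per length (CPM per kb of exon, mean ± SD over samples) placed Srebf2 first in BM at 33.4 ± 8.98 (n = 6). The length merges the exons of all annotated isoforms of a gene, from 3505 bases for Idi1 to 10787 for Lss. The order across genes therefore depends on the annotation. Idi1 followed at 15.7 ± 4.51, Hmgcs1 at 12.3 ± 5.35, Abcg1 at 11.7 ± 1.19 and Sqle at 9.27 ± 2.20 (n = 6 each). Idi1 differed from Hmgcs1, and Hmgcs1 from Abcg1, by less than the larger SD of the pair. Sqle lay below Abcg1 by more than the larger SD. Lss at 0.949 ± 0.198 and Abca1 at 0.627 ± 0.290 were the lowest. In spleen (n = 3), Idi1 at 34.2 ± 10.4, Srebf2 at 33.4 ± 2.28 and Hmgcs1 at 30.7 ± 8.07 differed from one another by less than the larger SD. Abcg1 at 19.3 ± 2.93 and Sqle at 18.1 ± 4.59 came next, and Lss at 1.32 ± 1.28 and Abca1 at 0.146 ± 0.228 were again last. Of the 2 exporters, Abcg1 was thus far above Abca1 per kb in both tissues.

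**Figure D1:**
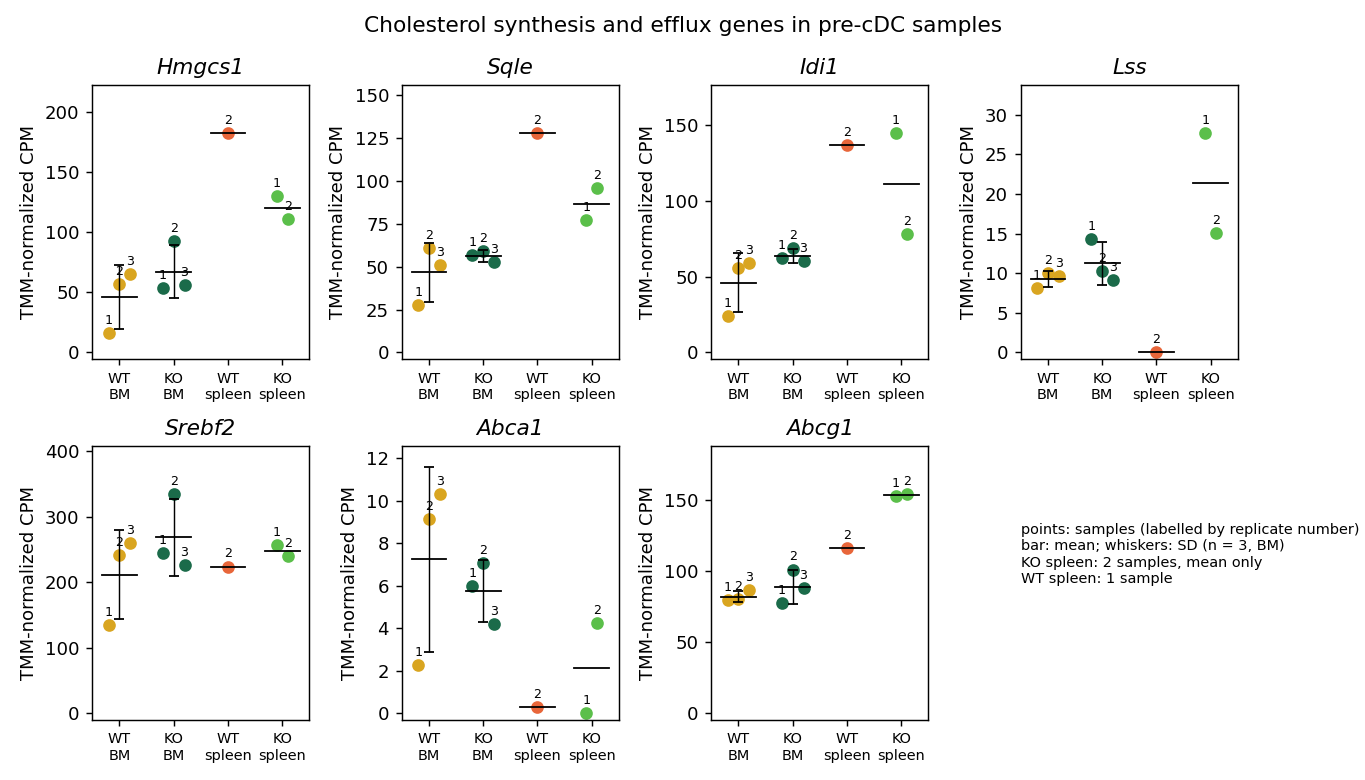
TMM-normalized CPM of each gene (vertical axis, linear from 0) in the 9 samples by group, with the replicate number beside each point, the mean as a bar and the SD as whiskers for the BM groups. Hmgcs1, Sqle, Idi1 and Abcg1 were higher in all 3 spleen samples than in all 6 BM samples, Srebf2 overlapped, and Lss was at 0 in WT spleen.

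Splenic pre-cDCs had higher levels of Sqle, Idi1 and Abcg1 than BM pre-cDCs, by 1.61-fold to 2.17-fold, whereas Srebf2 was at about the same level and Abca1 was low and scattered. Values follow for each gene in turn, synthesis first, as CPM per sample. The tissue test was edgeR's quasi-likelihood test on all 9 samples with genotype as a covariate and Benjamini-Hochberg adjustment, and of 13468 genes tested, 980 (7.28%) were called higher and 1651 (12.3%) lower in spleen at an adjusted p of 0.05. The median log2 difference of all genes tested was -0.18. Against these backgrounds, 3 of the 7 genes were called higher and 0 lower. With the replicate number as a block, 0 of the 7 were called, at adjusted p-values by edgeR of 0.122 for Sqle, 0.113 for Idi1 and 0.0838 for Abcg1.

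Hmgcs1 stood at 16.0, 56.7 and 65.6 CPM in WT BM and 53.3, 92.4 and 56.0 CPM in DNGR-1 KO BM. In spleen it reached 182 CPM in WT and 130 and 111 CPM in DNGR-1 KO. All spleen samples lay above all BM samples, with WT spleen highest and WT BM sample 1 lowest, and 9.11% of all genes tested had all spleen samples higher. The difference was 1.32 (log2, SE 0.42, 95% interval 0.38 to 2.27) and was not called by edgeR at an adjusted p of 0.0546. Without WT BM sample 1 it was 1.12 and called (adjusted p = 0.0190 by edgeR), as it was without DNGR-1 KO BM sample 2 (adjusted p = 0.0413) and with DESeq2 (adjusted p = 0.0156) and limma-voom (adjusted p = 0.0371). The other 7 fits that left out 1 sample did not call it. Without WT spleen it was 0.84 (adjusted p = 0.310 by edgeR), and over the DNGR-1 KO samples alone also 0.84 (adjusted p = 0.149).

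Idi1 was at 24.1, 55.4 and 59.0 CPM in WT BM and at 62.1, 69.1 and 60.2 CPM in DNGR-1 KO BM. Spleen values were 137 CPM in WT and 145 and 77.9 CPM in DNGR-1 KO. Again no spleen sample overlapped BM, although the pair of DNGR-1 KO spleen samples differed from each other by 1.86-fold. Idi1 was higher in spleen by 1.12 (log2, SE 0.32), a 2.17-fold change with an adjusted p of 0.0391 by edgeR.

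Sqle was at 27.8, 61.1 and 50.9 CPM in WT BM, and the DNGR-1 KO BM values of 56.9, 59.3 and 52.4 CPM were close together. In spleen it was at 128 CPM in WT and at 77.4 and 95.7 CPM in DNGR-1 KO, all above BM. The difference was 0.96 (log2, SE 0.28), or 1.95-fold, with an adjusted p of 0.0387 by edgeR. The calls of Sqle and Idi1 were both near the threshold. Of the 9 fits that left out a single sample, the call of Sqle held in 2 (without WT BM sample 1 or DNGR-1 KO spleen sample 1) and that of Idi1 in 2 (without WT BM sample 1 or DNGR-1 KO spleen sample 2). Without WT spleen, edgeR gave 0.62 for Sqle (adjusted p = 0.245) and 0.80 for Idi1 (adjusted p = 0.220), and both remained positive in every such fit.

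Lss, the next enzyme after Sqle, behaved differently between spleen samples. It was at 8.08, 9.97 and 9.66 CPM in WT BM and 14.3, 10.3 and 9.13 CPM in DNGR-1 KO BM. Spleen held 0 CPM (0 counts) in WT and 27.7 and 15.1 CPM (493 and 356 counts) in DNGR-1 KO. Both DNGR-1 KO spleen samples were thus above all BM samples, and the WT spleen sample was below them. The fitted tissue difference of -0.23 (log2, SE 1.40, edgeR adjusted p = 0.939) turned to 0.92 without WT spleen (adjusted p = 0.203). The 0 in WT spleen is one of the 509 genes that were at 3 or fewer counts there.

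Srebf2 was the most evenly expressed between tissues. It had 134, 242 and 260 CPM in WT BM, 245, 335 and 226 CPM in DNGR-1 KO BM, 224 CPM in WT spleen and 257 and 240 CPM in DNGR-1 KO spleen. All 3 spleen samples lay inside the range of BM. The log2 difference was -0.04 (SE 0.24, 95% interval -0.57 to 0.50, edgeR adjusted p = 0.942), and it was 0.02 with the size factors of DESeq2 in place of TMM, so no direction is given.

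Among the exporters, Abcg1 was at 79.6, 80.1 and 86.5 CPM in WT BM and 77.5, 101 and 88.0 CPM in DNGR-1 KO BM. It was at 117 CPM in WT spleen and at 153 and 154 CPM in DNGR-1 KO spleen, so that every spleen sample exceeded every BM sample. The difference was 0.68 (log2, SE 0.16), or 1.61-fold, with an adjusted p of 0.0181 by edgeR. It was called in all 9 fits that left out 1 sample (adjusted p 0.0208 to 0.0440 by edgeR), but not over the DNGR-1 KO samples alone, where it was 0.78 (adjusted p = 0.0666), nor without a filter on low counts (adjusted p = 0.0561), nor with the replicate block.

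Abca1 was at 2.27, 9.14 and 10.3 CPM in WT BM and 5.99, 7.07 and 4.21 CPM in DNGR-1 KO BM. In spleen it had 5 counts in WT (0.298 CPM) and 0 and 100 counts in DNGR-1 KO (0 and 4.24 CPM). DNGR-1 KO spleen sample 2 overlapped BM and the other spleen samples lay below it. The fitted difference was -2.28 (log2, SE 1.47, edgeR adjusted p = 0.331), and without DNGR-1 KO spleen sample 2 it was -5.65 and called (adjusted p = 0.0162). A fitted value that includes a library at 0 is not a bound on the fold.

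**Figure D2:**
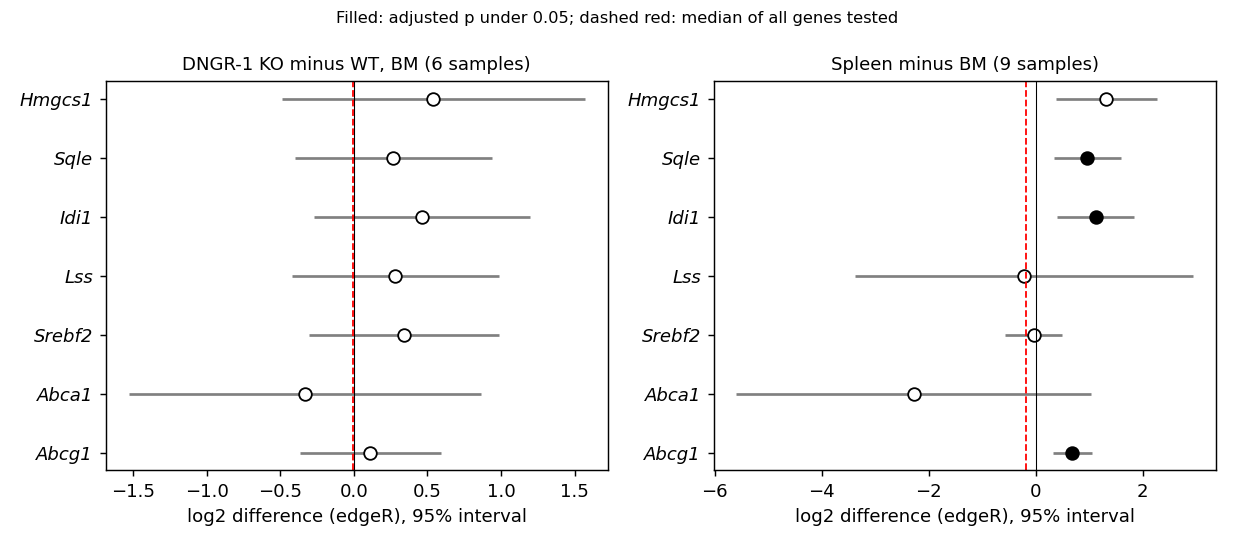
Fitted log2 differences of the 7 genes (horizontal axis, point) with 95% intervals (line), DNGR-1 KO minus WT in BM at left and spleen minus BM at right. Filled points passed an adjusted p of 0.05, which Sqle, Idi1 and Abcg1 did for tissue and none did for genotype, and the dashed line is the median of all genes tested.

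In BM, none of the 7 genes differed between WT and DNGR-1 KO pre-cDCs at an adjusted p of 0.05. edgeR's quasi-likelihood test over the 6 BM samples called 4 of 13016 genes (0.0307%), with 498 at an unadjusted p under 0.05. Of the 7 genes, 0 were called, 0 had an unadjusted p under 0.05, and DESeq2 and limma-voom also called 0. The differences of DNGR-1 KO from WT were 0.54 (log2, SE 0.46) for Hmgcs1, 0.46 (SE 0.33) for Idi1, 0.27 (SE 0.30) for Sqle, 0.28 (SE 0.31) for Lss and 0.34 (SE 0.29) for Srebf2. The exporters gave 0.11 (SE 0.21) for Abcg1 and -0.33 (SE 0.54) for Abca1. Adjusted p-values by edgeR were 0.861 to 0.930. The 95% intervals reached from -0.49 to 1.57 for Hmgcs1 and from -0.37 to 0.59 for Abcg1, so a change of 2-fold was inside the interval of Hmgcs1 and outside that of Abcg1. Idi1 was the only one of the 7 with no overlap between the genotypes in BM, and 9.56% of all genes tested had none.

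The WT samples of BM were themselves unlike. WT BM sample 1 had the lowest value of the 6 BM samples for 6 of the 7 genes, all but Abcg1. Against the median of the other BM samples, its level was 0.282 for Hmgcs1, 0.322 for Abca1, 0.399 for Idi1, 0.489 for Sqle and 0.548 for Srebf2, but 0.810 for Lss and 0.920 for Abcg1. When it was left out, the genotype difference went from 0.54 to 0.14 for Hmgcs1, from 0.46 to 0.16 for Idi1, from 0.34 to 0.10 for Srebf2 and from 0.27 to 0.01 for Sqle (log2). That of Abca1 went from -0.33 to -0.75, while those of Lss (0.28 to 0.20) and Abcg1 (0.11 to 0.10) moved by less than 1.5 times. None of the 7 was called in either fit. The list of 22 synthesis genes also summed to 1096 CPM in this sample and to 1568 to 2413 CPM in the other BM samples. Of the BM samples it also had the lowest summed pre-cDC and cDC markers (3153 CPM) and macrophage and monocyte markers (192 CPM). At least 160 CPM of the latter sum was Csf1r. This sample also had the highest erythroid markers (554 CPM) in BM. The part of such cells in these values was not tested.

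**Figure D3:**
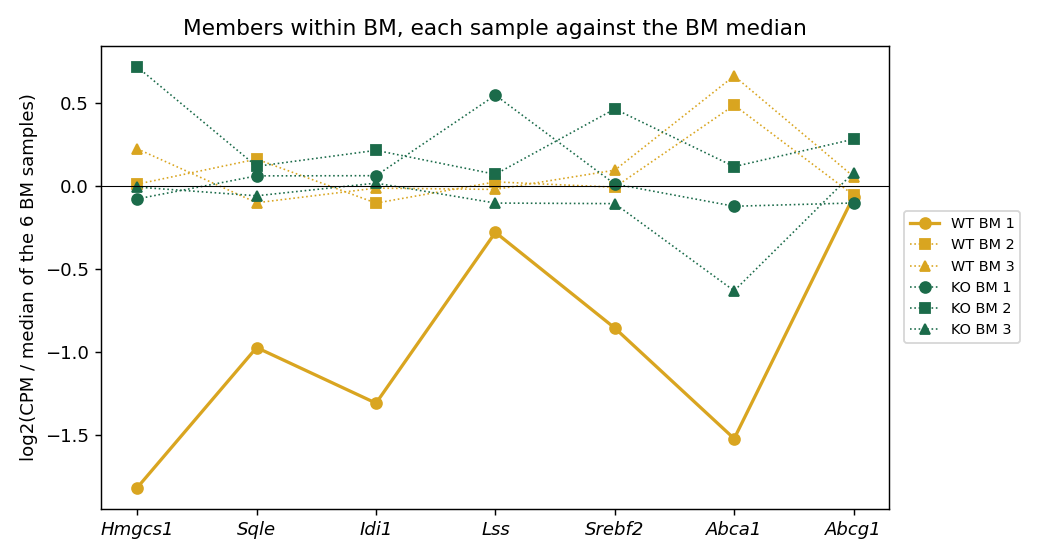
Each BM sample's level against the median of the 6 BM samples (vertical axis, log2 ratio of CPM) for the 7 genes. WT BM sample 1 (solid line) was lowest for 6 of the 7, and Abcg1 was the gene with the narrowest spread.

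With tissue means removed, Hmgcs1 moved with Srebf2 (Pearson r = 0.92), Idi1 (0.91) and Sqle (0.88) over the 9 samples, and r between Lss, at 0 in WT spleen, and Hmgcs1 was -0.19. These values describe 9 samples that share libraries and depth. Within the 6 BM samples, r was 0.93 between Hmgcs1 and Sqle and 0.19 without WT BM sample 1, so that pair rests on this sample, whereas r between Hmgcs1 and Srebf2 was 0.99 and 0.96. DNGR-1 KO BM sample 2 was the highest BM sample for both Hmgcs1 (92.4 CPM) and Srebf2 (335 CPM), and whether their r rests on it was not tested. For Lss, r within BM was 0.46 with Hmgcs1, 0.61 with Sqle and 0.59 with Idi1, and -0.26, 0.30 and 0.22 without WT BM sample 1. The exporters did not move together, with r between Abca1 and Abcg1 of -0.63 over the 9 samples and 0.19 once tissue means were removed.

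The genes most like the mean profile of the 4 synthesis genes, by Pearson r of log2 CPM across 9 samples and 13461 genes, were Inpp5f (0.98), Khnyn (0.98), Atp6v0a2 (0.97), Plekho2 (0.97) and Rassf5 (0.97). After tissue means were removed they were Fbxl5 (0.99), Khnyn (0.98), Slc39a10 (0.98), Ska3 (0.98) and Vcl (0.98), and 3.74% of all genes had an r above 0.8. Among the other synthesis genes, Lbr (0.96), Cyp51 (0.73) and Ggps1 (0.64) were among those that followed the profile most closely within tissues. Others did not follow it, such as Mvd (-0.06), or had negative r, among them Pmvk (-0.65), Nsdhl (-0.42) and Tm7sf2 (-0.26). The list thus did not move as a whole. The exporter profile is the mean of Abca1 and Abcg1, whose r over the 9 samples was -0.63, so it stands for neither gene alone. The nearest to this mean were Eif4g3 (0.94), Pgs1 (0.94), Rgs11 (0.94), Chd3 (0.94) and Ube2d2a (0.93). Within tissues they were Eif4g3 (0.98), Tiparp (0.97), Gramd3 (0.97), Fbxl14 (0.97) and Sun2 (0.97). Of all genes, 1.03% had an r above 0.8 with it, and 3.57% within tissues.

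Within the whole mevalonate and cholesterol synthesis list, 5 of 22 genes were called higher in spleen and 0 lower, where 7.28% and 12.3% of all genes tested were, with a median log2 difference of 0.32 beside -0.18 over all genes tested. Msmo1, the C4-methylsterol oxidase, was higher by 1.63 (SE 0.28, adjusted p = 0.00405). Ggps1, which makes geranylgeranyl diphosphate for protein prenylation rather than sterol, was higher by 1.25 (SE 0.22, adjusted p = 0.00420), and Mvd, the mevalonate diphosphate decarboxylase, by 1.14 (SE 0.27, adjusted p = 0.0156), all by edgeR. Sqle and Idi1 are the other two. Among the rest, 10 of the 22 had negative values. Those included Lbr and Tm7sf2, which encode sterol C14 reductases, at -0.97 and -1.21, and Nsdhl at -0.94, with adjusted p-values of 0.126, 0.214 and 0.0541. Msmo1 was at 28.9 to 58.9 CPM in BM and at 165, 104 and 115 CPM in WT, DNGR-1 KO 1 and DNGR-1 KO 2 spleen. Without WT spleen the list had 2 calls. Leaving out replicate 2 or 3 of WT BM, or replicate 1 or 3 of the KO in BM, left 3 calls each time. It had 7 without WT BM sample 1, and over the DNGR-1 KO samples alone it had 1.

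**Figure D4:**
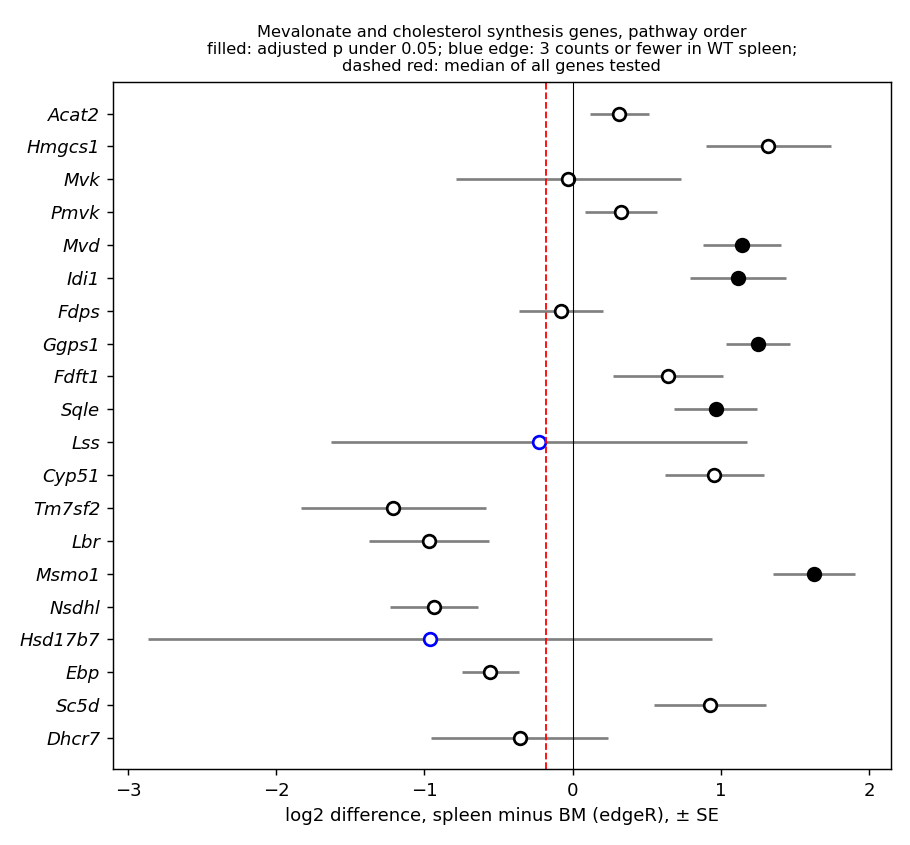
Log2 difference of spleen minus BM (horizontal axis, point) with its SE (line) for 20 of the 22 genes of mevalonate and cholesterol synthesis in pathway order. The 5 filled points, Mvd, Idi1, Ggps1, Sqle and Msmo1, passed an adjusted p of 0.05, and the widest lines belong to Lss and Hsd17b7, which had 0 counts in WT spleen.

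The genes that control SREBP processing were not called between tissues (0 of 7, with a median of -0.04 and 2 at an unadjusted p under 0.05, edgeR). Of all genes tested, 7.28% were called higher and 12.3% lower, so 0 of 7 is near that background. Insig2, an anchor that holds the SREBP complex in the endoplasmic reticulum, was at 0.85 (SE 0.28, adjusted p = 0.0636). Srebf1 was at -0.77 (SE 0.28, adjusted p = 0.0793), Insig1 at 0.59 (SE 0.27, adjusted p = 0.166), and Scap, the sterol sensor that escorts SREBP, at -0.51 (SE 0.27, adjusted p = 0.238), by edgeR.

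Genes of sterol uptake, transport and storage had 2 of 14 called, both higher in spleen, a count near the 7.28% of all genes called higher. Cd36, a scavenger receptor, was higher by 3.58 (SE 0.37, adjusted p = 0.000378), and Lipa, the lysosomal acid lipase that frees cholesterol from its esters, by 1.37 (SE 0.23, adjusted p = 0.00400), by edgeR. Lrp1 was at 0.73 (SE 0.35, adjusted p = 0.181), and Vldlr, at 0 to 36 counts in BM, was at 0 in all 3 spleen samples. Stard4, a sterol carrier, ranged from 312 counts in WT spleen to 114 and 4 in DNGR-1 KO spleen.

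LXR receptors and targets had 4 of 12 genes called higher and 1 lower in spleen, Abcg1 among the former, beside 7.28% and 12.3% of all genes tested. Nr1h3, which encodes LXRα, rose by 3.74 (SE 0.66, adjusted p = 0.00470) from 0.104 to 1.20 CPM in BM to 3.04, 11.0 and 8.13 CPM in spleen. Apoe, which encodes an apolipoprotein that takes up exported cholesterol, rose by 2.62 (SE 0.42, adjusted p = 0.00298), and Arl4c, a small GTPase, by 1.71 (SE 0.42, adjusted p = 0.0206). Lpcat3, a phospholipid acyltransferase, was lower by edgeR at -1.07 (SE 0.23, adjusted p = 0.0106). Nr1h2, which encodes LXRβ, differed by less than its SE of 0.18, and Mylip, a ubiquitin ligase, was at 1.86 (SE 0.58, adjusted p = 0.0515). Apoe and Nr1h3 are also expressed by macrophages. Of the 9 macrophage and monocyte markers tested, 5 were called higher in spleen, beside 7.28% of all genes, among them Adgre1 by 4.29 and C1qb by 5.39. Csf1r, present in the same list, was at -0.11. The part of such cells in these values was not tested.

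Of the oxysterol enzymes, Cyp27a1, the sterol 27-hydroxylase, was called higher in spleen by 1.44 (SE 0.32, adjusted p = 0.0134, edgeR), with 51.3 to 99.6 CPM in BM and 251, 199 and 89.5 CPM in spleen. It was 1 of 3 tested, beside 7.28% of all genes called higher, and a list of 3 is too short to compare with that share. Cyp7b1, an oxysterol 7α-hydroxylase, had 0 counts in WT spleen, 320 and 454 in DNGR-1 KO spleen and 0 to 16 in BM (adjusted p = 0.0978, edgeR), and Hsd3b7 was at -0.42 (adjusted p = 0.370). Ch25h and Cyp46a1 were at 0 in all spleen samples and at 2 counts or fewer in BM. Among fatty acid synthesis genes, 1 of 10 tested was called, near the share of all genes (7.28% higher), namely Elovl5, an elongase, at 0.75 (SE 0.22, adjusted p = 0.0415, edgeR). Elovl6 was at 0.69 (adjusted p = 0.125), Acss2 at 0.61 (adjusted p = 0.389) and Fads2, a desaturase with 66, 194 and 2 counts in spleen, at -2.69 (adjusted p = 0.105). In BM no gene of these lists was called between genotypes by edgeR. The synthesis list had a median genotype difference of 0.27 there, with 18 of 22 positive and 0 at an unadjusted p under 0.05, beside a median of -0.0045 over all genes. Without WT BM sample 1 the list's median was 0.19, with 17 of 22 positive. The macrophage and monocyte markers tested there had a median of 0.81 and the pre-cDC and cDC markers of 0.35, and their part in these values was not tested. Soat1, which esterifies cholesterol, was the only gene of the uptake, transport and storage list with an unadjusted p under 0.05 (0.93, SE 0.36, adjusted p = 0.861).

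In spleen the genotypes had 1 WT sample and 2 DNGR-1 KO samples, so their values are given with no test. Hmgcs1 in the 2 DNGR-1 KO samples was at 0.713 and 0.607 of the WT level, and Sqle at 0.606 and 0.749. Idi1 was at 1.06 and 0.569, Srebf2 at 1.15 and 1.07, and Abcg1 at 1.31 and 1.32. Abca1, with only 5 counts in WT spleen, was at 0 and 14.2 of that level. The ratio between the DNGR-1 KO samples themselves was 1.86 for Idi1 and 0.989 for Abcg1. Lss was at least 155-fold and 84.4-fold higher in the DNGR-1 KO samples than the 3 counts per library that a count of 0 in WT spleen allows, for counting error only.

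Whether the genotype difference changed with tissue was tested as an interaction over all 9 samples, which assumes that the single WT spleen sample varies as the other groups do. edgeR called 1108 of 15813 genes (7.01%), with a median log2 interaction of 0.35, and 1 of the 7 genes. That gene was Lss at 11.41 (SE 1.43, adjusted p = 0.00273), a fitted value that rests on 0 counts in WT spleen. It was not called by limma-voom (adjusted p = 0.0671). For the other genes the interaction was -1.15 (SE 0.83) for Hmgcs1, -0.84 (SE 0.54) for Sqle, -0.78 (SE 0.66) for Idi1, -0.20 (SE 0.51) for Srebf2, 3.14 (SE 2.53) for Abca1 and 0.27 (SE 0.35) for Abcg1, with edgeR adjusted p-values of 0.436 to 0.981.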

How the data were processed

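Bulk RNA-seq of pre-cDCs was analysed in 9 samples, grouped by the genotype and tissue of their labels. The authors deposited estimated counts per gene (25.6% of the nonzero values are not whole), rounded here before testing, and log2-scale values of 20810 genes after variance stabilizing transformation, used here only as another scale for profile likeness. The submitters' processing notes name Trimmomatic 0.36, STAR 2.5.2, RSEM 1.3.0, DESeq2 1.18.1, R 3.4.3 and GRCm38. RSEM divides reads shared by several genes, and libraries from ribosome-depleted total RNA hold unspliced RNA. Symbols came from GENCODE M21 (51633 identifiers matched).

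Tests used R 4.3.3 and edgeR 4.0.16 (TMM, filterByExpr, quasi-likelihood, Benjamini-Hochberg over all genes tested, threshold 0.05), with SE taken from the F statistic. Alternatives were limma 3.58.1 (voom), DESeq2 1.42.0, other filters and size factors, a replicate block, the chromosome 1 congenic score, and samples left out. Log2 CPM used a prior count of 2. A fold against a count of 0 used 3 counts. Total counts were 17103806 to 23722298. Replicates differed beyond sampling noise (chi-square per gene 30.8 to 267). Each script that fits across genes was tested on simulated data.

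The 7 genes and the gene lists were chosen with earlier results of these data known. Named genes were the 7 genes, the 4 genes of each pathway list with the lowest tissue p, any called gene of a list in BM, and the 5 most alike in profile. Lbr, Cyp51, Pmvk, Tm7sf2, Nsdhl, Hsd17b7, Stard4, Soat1, Arl4c, Nr1h2, Mylip, Ch25h, Cyp46a1, the interaction genes and single markers were named outside this rule after their values were seen. Some single genes of the lists are not reported here, and the counts over lists include them.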

Additional observations from a re-analysis of the deposited data

Results flagged for a closer look

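Under the same contrast of DNGR-1 KO with WT, 6 genes given here from the pathway lists passed an adjusted p of 0.05 in the interaction of genotype with tissue (edgeR, all 9 samples). This test has 1 sample in the WT spleen arm, the library in which 509 well-covered genes were at 3 or fewer counts, and limma-voom called 0 of the 15813 genes (2968 at an unadjusted p under 0.05), so a difference between the tissues is not shown. In 3 of them WT spleen was at 0 counts, and the fitted values are no bounds: Lss at 11.41, Rxra at 11.11 and Acaca at 10.92. Mvk, the mevalonate kinase, was at 4.02 (adjusted p = 0.00948), with 34 counts in WT spleen and 516 and 751 in DNGR-1 KO spleen. Sc5d, a sterol desaturase, was at -1.996 (adjusted p = 0.0275), with 197 CPM in WT spleen, 59.8 and 61.0 CPM in DNGR-1 KO spleen and 36.2 to 68.6 CPM in BM. Scarb1, the HDL receptor, was at -1.93 (adjusted p = 0.0276), with 459 CPM in WT spleen and 173 and 105 CPM in DNGR-1 KO spleen. Across all genes 1108 of 15813 (7.01%) were called.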

How the results depend on the processing

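In BM, 0 of the 7 genes were called under any alternative, and at most 2 had an unadjusted p under 0.05 (with the congenic score as covariate). Abca1 there was at -0.75 to 0.01 across fits that left out 1 sample, positive (0.012) without WT BM sample 3. For spleen against BM, 3 of the 7 genes were called, 1 without a filter on low counts (Idi1), 1 to 4 across fits without 1 sample, 0 over the DNGR-1 KO samples alone (4 at an unadjusted p under 0.05, edgeR) and 1, Abcg1, without WT BM sample 1 and WT spleen together, a setting chosen after seeing the data. The 5 calls of the synthesis list became 9 with DESeq2, 8 without the genotype term, 3 without those 2 samples, 1 over the DNGR-1 KO samples and 2 to 7 without 1 sample. Srebf2 turned to 0.024 with DESeq2 and with its size factors in edgeR, to 0.00090 without the genotype term and to -0.13 to 0.10 without 1 sample. Lss turned to 0.48 without the genotype term, 0.92 over the DNGR-1 KO samples, 0.94 without both samples and -1.11 to 0.92 without 1 sample. Abcg1 was not called without a filter (adjusted p = 0.0561). The cause of these changes was not tested.

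In the interaction, limma-voom called 0 of the 7 genes, 0 of the synthesis list and 0 of all genes (1, 7 and 2968 at an unadjusted p under 0.05), where DESeq2 called 1, 5 and 2195. With at least 10 counts in every sample, which removes Lss and Abca1, the calls were 0, 1 and 167 (0, 5 and 1533 unadjusted). Without 1 sample, the synthesis list had 3 to 6 calls beside 4, Srebf2 was at -0.38 to 0.039 and Abca1 at -5.21 to 4.13. Over all genes, BM calls numbered 4, with 11 by DESeq2, 10 without a filter and 2 to 15 without 1 sample, and interaction calls 1108, with 767 to 2677 without 1 sample. Calls between tissues numbered 2631 and 1336 over the DNGR-1 KO samples, and the share of them higher in spleen was 37.2%, or 55.4% with at least 10 counts in every sample.

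Whether the replicate numbers mark shared mice is not given. In BM, the pairing that was checked, the deviations of samples that share a number correlated at 0.10, 0.10 and -0.08, and no spleen sample was checked. With the number as a block, 0 of the 7 genes (4 at an unadjusted p under 0.05) and 2 of the synthesis list were called between tissues, 1246 of all genes, and in the interaction 1 of the 7, 1 of the synthesis list and 596 of all genes. Of the 5 genes most like each profile, 3 (synthesis) and 1 (exporters) stayed among the 5 on the deposited log2 values, or 1 and 2 with tissue means removed. With a prior count of 0.5 they were 4 and 2, or 4 and 3. Counts of 0 to 100 leave Abca1 in spleen with the least precision.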
